A study of Arabidopsis thaliana with 14 samples.

Results

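The gibberellin oxidases described here are 8 genes chosen by locus identifier from the 24350 genes that the deposited expression tables hold. They comprise 3 GA 20-oxidases (GA20OX1, GA20OX2 and GA20OX3), the GA 3-oxidase GA3OX1, and 4 GA 2-oxidases (GA2OX1, GA2OX2, GA2OX6 and GA2OX8). The RNA-Seq data cover 14 samples of Arabidopsis thaliana grown in the dark for 6 days, all on medium with 2 µM propiconazole (PPZ), an inhibitor of brassinosteroid (BR) biosynthesis, the mock groups included. By the labels there were 2 samples of bzr1-1D with 1 µM diphenyleneiodonium (DPI, an inhibitor of NADPH oxidases) plus 0.3 mM H2O2, 3 of bzr1-1D with 1 µM DPI, 3 of bzr1-1D mock, 3 of wild-type Col-0 with 1 µM DPI and 3 of Col-0 mock. The bzr1-1D line has a dominant, gain-of-function mutation in BZR1, a transcription factor of the BR pathway, and is a single mutant line. Col-0 with DPI plus H2O2 was not analysed here.

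The tables give 1 authors' mean per group, in FPKM, a count of sequenced fragments scaled by transcript length and library size, and the values have no SD or n. By their decimals, the means of bzr1-1D mock and of bzr1-1D DPI plus H2O2 average 2 libraries and the others 3. Low values come in steps of whole reads, and these steps put each library at an estimated 9500000 to 10100000 reads. The reads behind a mean were estimated from these steps, and the 95% intervals given below are computed from them. They cover counting error only, so that no difference below has a replicate check. A value of 0.01 FPKM stands for 0. A gene was counted as past the threshold when 2 group means differed by 1.5-fold or more. DWF4 and CPD, BR biosynthesis genes that BZR1 represses, had lower means in bzr1-1D mock (DWF4 5.15, CPD 171.2 FPKM) than in Col-0 mock (DWF4 15.5, CPD 290.3 FPKM). The labels name hypocotyl as the tissue, while the study's text speaks of seedlings. CASP1 and CASP2, which mark the root endodermis, were above 0.01 FPKM in every group.

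Gibberellins are growth hormones that promote cell elongation, and in etiolated hypocotyls they act together with BR. GA 20-oxidases and GA 3-oxidases carry out the last steps that make bioactive gibberellin, whereas GA 2-oxidases inactivate bioactive gibberellins or their precursors. In Arabidopsis several of these genes are under feedback control, in which gibberellin signalling lowers transcripts of GA20OX and GA3OX genes and raises those of GA2OX genes. The DELLA proteins, which gibberellin removes, also bind BZR1 and lower its activity.

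The sequence before the annotated start of a gene was read from the RefSeq TAIR10.1 assembly, whose gene models enclose the coordinates of all 24145 genes compared with the tables. Of these genes, 15666 have the same start and end in both. GA2OX2 starts at 10537457 in the assembly and at 10537648 in the deposited coordinates, and its window lies before the first. The 300 bases upstream of each of the 8 genes were searched on both strands for CACGTG (the G-box), for 2 BR response element words that BZR1 binds (CGTGTG in the first form and CGTGCG in the second), for the E-box bound by PIF factors (CACATG) and for the general E-box (CANNTG), of which the G-box and the PIF E-box are special cases. The G-box and both BR response element words were found in 0 of the 8 windows. Of the windows of 27443 protein-coding genes, 7.09% hold the G-box, 6.11% the first response element word and 1.78% the second. The PIF E-box was found in 2 of the 8 windows (GA20OX2 and GA3OX1), against 13.1% of all windows, and the general E-box in 7 of the 8, all but GA2OX1, against 61.9%. A match is a match of letters and not a binding site, and its absence says only that these letters are not in the window. The upstream windows of 4 genes are shown because 3 of them, GA20OX1, GA3OX1 and GA2OX6, had higher means in bzr1-1D mock, while GA20OX2 was the most abundant 20-oxidase in Col-0. Capitals mark the general E-box, and each window is written 5′ to 3′ on the strand of its gene. GA20OX1 (AT4G25420, minus strand) has the window chr4:12992586-12992885, GA20OX2 (AT5G51810, minus strand) chr5:21056882-21057181, GA3OX1 (AT1G15550, minus strand) chr1:5346343-5346642 and GA2OX6 (AT1G02400, plus strand) chr1:486500-486799.
GA20OX1: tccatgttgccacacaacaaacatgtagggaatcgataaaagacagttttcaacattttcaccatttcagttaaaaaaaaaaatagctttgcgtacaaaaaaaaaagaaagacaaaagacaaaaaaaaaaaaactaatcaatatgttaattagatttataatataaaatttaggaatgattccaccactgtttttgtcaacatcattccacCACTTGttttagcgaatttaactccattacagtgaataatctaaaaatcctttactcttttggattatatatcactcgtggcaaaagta
GA3OX1: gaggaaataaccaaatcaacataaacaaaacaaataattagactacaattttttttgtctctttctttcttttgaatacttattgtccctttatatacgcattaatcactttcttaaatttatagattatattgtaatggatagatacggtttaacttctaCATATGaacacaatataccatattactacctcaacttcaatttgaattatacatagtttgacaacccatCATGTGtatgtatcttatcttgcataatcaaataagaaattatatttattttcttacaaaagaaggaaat
GA2OX6: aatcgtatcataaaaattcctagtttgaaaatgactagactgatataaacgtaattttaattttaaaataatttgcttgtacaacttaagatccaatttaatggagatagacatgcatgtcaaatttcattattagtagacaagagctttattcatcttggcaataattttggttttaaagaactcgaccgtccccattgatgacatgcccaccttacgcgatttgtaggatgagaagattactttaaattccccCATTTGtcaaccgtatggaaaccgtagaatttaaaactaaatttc
GA20OX2: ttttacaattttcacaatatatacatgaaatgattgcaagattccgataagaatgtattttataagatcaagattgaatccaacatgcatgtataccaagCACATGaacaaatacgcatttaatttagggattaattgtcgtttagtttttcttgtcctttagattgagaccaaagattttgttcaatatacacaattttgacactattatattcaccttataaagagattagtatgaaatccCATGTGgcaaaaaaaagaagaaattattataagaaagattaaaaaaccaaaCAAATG

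The E-box letters of GA20OX1 lie in the word CACTTG, which begins 89 bases before the annotated start. In GA3OX1 the capitals mark a CATATG word that begins 139 bases before the start and a CATGTG word, the PIF E-box read on the other strand, that begins 70 bases before it. GA2OX6 holds CATTTG at 45 bases before its start. The 8 annotated genes lie apart from each other on chromosomes 1, 4 and 5. On chromosome 1 are GA2OX6 (chr1:486800-489651), GA3OX1 (chr1:5344388-5346342), GA2OX2 (AT1G30040, chr1:10537457-10540044) and GA2OX1 (AT1G78440, chr1:29511561-29513100). Chromosome 4 holds GA2OX8 (AT4G21200, chr4:11302682-11306770) and GA20OX1 (chr4:12990851-12992585), and chromosome 5 holds GA20OX3 (AT5G07200, chr5:2243553-2245339) and GA20OX2 (chr5:21055179-21056881). None of the 8 genes overlaps another annotated gene, and no stretch of 50 bases in the longest transcript of any of them occurs in the other 16 GA oxidase transcripts, so reads of that length can be told apart between them.

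GA3OX1, the enzyme of the final activating step, had the highest mean of the 8 genes in every group. In Col-0 DPI its counting interval overlapped that of GA2OX6 (GA3OX1 4.04 FPKM, GA2OX6 3.82 FPKM). In bzr1-1D mock the order was GA3OX1 (29.5 FPKM), GA2OX6 (14.1 FPKM), GA2OX2 (5.37 FPKM) and GA20OX1 (3.31 FPKM), each apart from the next by its counting interval, and then GA20OX2 (2.04 FPKM) and GA2OX8 (1.15 FPKM), which overlapped between them. In Col-0 mock GA3OX1 stood at 6.32 FPKM, followed by GA2OX6 at 3.74 and GA20OX2 at 3.02 FPKM, whose counting intervals overlap, and then by GA2OX2 at 1.91 and GA20OX3 at 1.03 FPKM. The remaining genes, GA2OX8, GA2OX1 and GA20OX1, rested on 3, 2 and 1 estimated reads over the 3 Col-0 mock libraries. GA20OX1 thus held the fourth place in bzr1-1D mock and the last in Col-0 mock, where its interval overlapped that of GA2OX1. Among all genes listed, GA3OX1 lay at percentile 82.8 in bzr1-1D mock and 53.2 in Col-0 mock, and GA20OX1 at 39.1 in bzr1-1D mock and 4.9 in Col-0 mock.

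**Figure D1:**
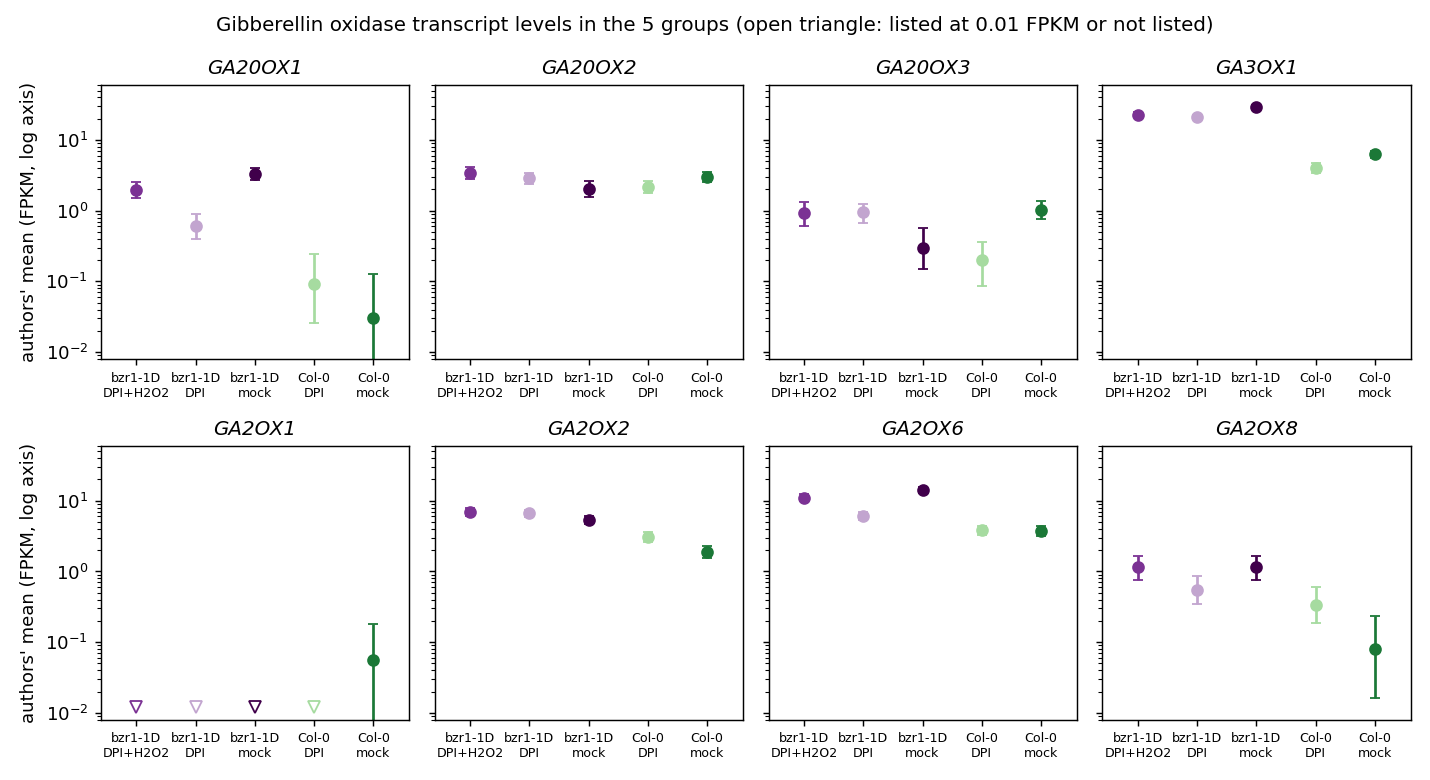
Authors' mean of each of the 8 gibberellin oxidases (FPKM, log axis) in the 5 groups. Points are group means, bars are 95% counting intervals from estimated reads, with no replicate error, and open triangles mark groups where GA2OX1 was listed at 0.01 FPKM or not listed. GA20OX1 reaches 3.31 FPKM in bzr1-1D mock and stays at or below 0.0933 FPKM in both Col-0 groups, while GA20OX2 lies between 2.04 and 3.41 FPKM in all groups.

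Without DPI, the bzr1-1D allele went with higher means of GA3OX1, of 3 GA 2-oxidases and of a single 20-oxidase. Taken over genes whose 2 means averaged 1 FPKM or more, the median gene had 0.14 on the log2 scale. In bzr1-1D mock against Col-0 mock, 5 of the 8 genes were higher and 2 were lower by 1.5-fold or more, whereas over all 23656 genes 29.2% were higher and 19.3% lower. The median log2 ratio of the 8 genes was 1.70, against 0.16 for all genes. The lower count includes GA2OX1, whose values lie at the detection limit. Relative to the median gene at 0.14, 5 were higher and 3 lower, GA20OX2 being the gene added. So centred, 5661 of all 23656 genes were higher and 5426 lower. Among the 5 members whose 2 means averaged 1 FPKM or more, 4 were higher and 0 lower, against 26% and 15.4% of all such genes.

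GA20OX1, the 20-oxidase best known for its role in stem and hypocotyl growth, had a mean of 3.31 FPKM in bzr1-1D mock, against 0.03 FPKM in Col-0 mock. These means correspond to an estimated 96 reads in bzr1-1D mock and 1 read in Col-0 mock. The ratio of the means was 110-fold, with a counting interval from 25.1- to 5721-fold. The size of this ratio therefore rests on 1 read, while the difference itself does not. After 1 FPKM was added to both means, its log2 ratio was 2.06 in place of 6.78.

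The other 20-oxidases did not share this difference. GA20OX2, which overlaps in function with GA20OX1, had 2.04 FPKM in bzr1-1D mock, beside 3.02 FPKM in Col-0 mock, a ratio of 0.675 (counting interval 0.490 to 0.920) that lies just inside the threshold. Relative to the median gene, its log2 ratio was -0.71, which is past the threshold. GA20OX3 had 0.295 FPKM in bzr1-1D mock, beside 1.03 FPKM in Col-0 mock, a ratio of 0.285 (0.135 to 0.596) from an estimated 10 reads in bzr1-1D mock and 50 in Col-0 mock. The 3 genes thus differed in direction within one enzyme class.

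GA3OX1 had 29.5 FPKM in bzr1-1D mock, beside 6.32 FPKM in Col-0 mock, a 4.66-fold ratio whose counting interval runs from 4.07- to 5.33-fold. It had the best counted difference of the set, with an estimated 904 reads in bzr1-1D mock and 290 reads in Col-0 mock. On the inactivating side, GA2OX6 had 14.1 FPKM in bzr1-1D mock, beside 3.74 FPKM in Col-0 mock (3.77-fold, 3.13 to 4.57). GA2OX2 had 5.37 FPKM in bzr1-1D mock, beside 1.91 FPKM in Col-0 mock (2.81-fold, 2.20 to 3.59). Genes of activation and of inactivation were thus both higher in bzr1-1D. GA2OX8, which acts on earlier precursors than GA2OX2 does, had 1.15 FPKM in bzr1-1D mock, beside 0.08 FPKM in Col-0 mock, a 14.3-fold ratio with an interval from 4.48 to 74.1 because only 3 reads lie behind the Col-0 value. GA2OX1 was listed at 0.01 FPKM in bzr1-1D mock and at 0.0567 FPKM in Col-0 mock, an estimated 0 reads in bzr1-1D mock and 2 in Col-0 mock, and no fold is given for it.

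**Figure D2:**
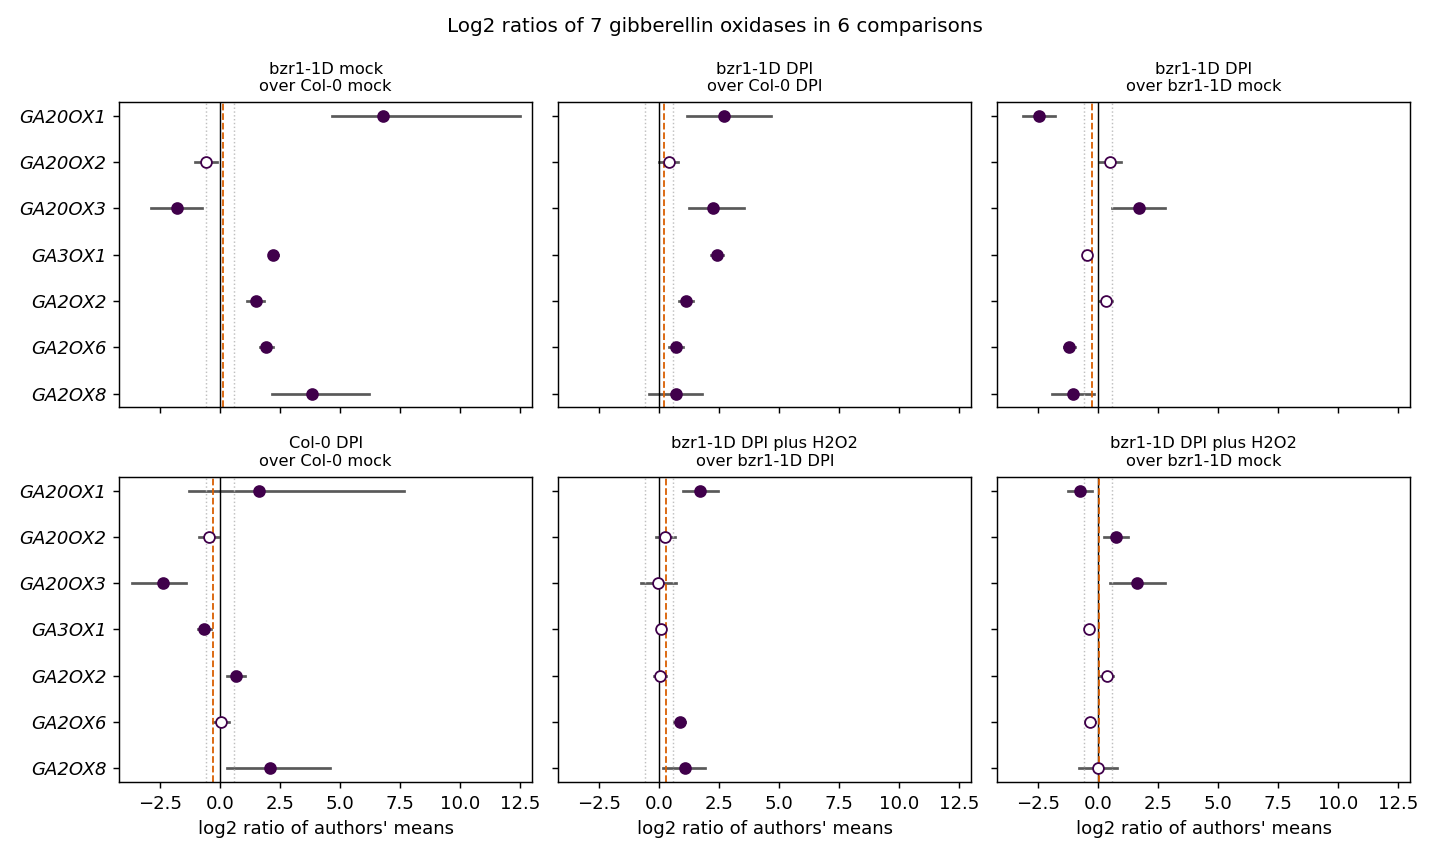
Log2 ratio of authors' means (x axis) for 7 gibberellin oxidases (y axis) in the 6 comparisons, the first-named group over the second. Filled points are past 1.5-fold, horizontal lines are 95% counting intervals without replicate error, dotted lines mark 1.5-fold and the orange dashed line marks the median gene; between the genotypes, GA3OX1 lies at 2.41 under DPI and 2.22 in mock, while GA20OX1 lies at 2.70 under DPI and 6.78 in mock.

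Root endodermis markers moved with some of these genes and against others. CASP1 and CASP2 had higher means in bzr1-1D than in Col-0 in mock and under DPI, as did GA20OX1, GA3OX1, GA2OX2, GA2OX6 and GA2OX8. GA20OX3 and, inside the threshold as deposited, GA20OX2 had lower means in bzr1-1D mock than in Col-0 mock. So had GA2OX1, on an estimated 0 reads in bzr1-1D mock and 2 in Col-0 mock. With DPI in Col-0 both markers had lower means, whereas GA2OX2 and GA2OX8 had higher ones. The summed level of CASP1 and CASP2 was 197.5 FPKM in bzr1-1D mock, beside 64.2 FPKM in Col-0 mock, and it was 188 FPKM in bzr1-1D DPI plus H2O2, 113 FPKM in bzr1-1D DPI and 35.6 FPKM in Col-0 DPI. Both markers were above 0.01 FPKM in each group, with single values from 7.14 to 144.6 FPKM. The 4 root hair markers EXPA7, EXPA18, COBL9 and PRP3 summed to 16.9 FPKM in bzr1-1D DPI plus H2O2, 11.2 FPKM in bzr1-1D DPI, 34.1 FPKM in bzr1-1D mock, 78.0 FPKM in Col-0 DPI and 19.8 FPKM in Col-0 mock. PRP3, at 9.76 to 69.3 FPKM, made up most of this sum in each group. The photosynthetic genes LHCB1.1, RBCS1A and LHCA1 summed to 4012 FPKM in bzr1-1D DPI plus H2O2, 7532 FPKM in bzr1-1D DPI, 3820 FPKM in bzr1-1D mock, 12713 FPKM in Col-0 DPI and 8777 FPKM in Col-0 mock. The part of the root or other cell types in the results on gibberellin oxidases was not tested. Fewer cells of a type and less RNA per cell cannot be told apart in such samples.

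Under DPI, which was used to test whether H2O2 is needed for the action of BZR1, GA3OX1 had a ratio between the genotypes near that in mock, while the differences of GA20OX1, GA2OX6 and GA2OX8 were smaller. In bzr1-1D DPI against Col-0 DPI, 6 of the 7 genes listed were higher by 1.5-fold or more and 0 lower, against 30.5% and 13.5% of all 23571 genes. The median log2 ratio was 1.12 for the 7 genes and 0.21 for all genes. Relative to the median gene with at least 1 FPKM, at 0.20, 4 of the 7 were higher and 0 lower, because GA2OX6 and GA2OX8 then lay inside the threshold. So centred, 5481 of all 23571 genes were higher and 4336 lower. This centring also moved the share of higher genes among all genes past the threshold to 55.8%, against 69.3% before it.

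GA3OX1 had 21.4 FPKM in bzr1-1D DPI and 4.04 FPKM in Col-0 DPI, a 5.31-fold ratio (counting interval 4.53 to 6.27). Its log2 ratio between the genotypes differed by 0.19 ± 0.15 (DPI minus mock, ± counting SE). GA2OX2 had 6.66 FPKM in bzr1-1D DPI and 3.07 FPKM in Col-0 DPI, or 2.17-fold (1.80 to 2.64), and its log2 ratio differed by -0.37 ± 0.22 (DPI minus mock). These 2 genes had the smallest differences between the conditions.

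GA2OX6 had 6.15 FPKM in bzr1-1D DPI and 3.82 FPKM in Col-0 DPI, a 1.61-fold ratio (1.32 to 1.98), against 3.77-fold in mock, with a difference of -1.23 ± 0.20 between the log2 ratios. GA20OX1 had 0.607 FPKM in bzr1-1D DPI and 0.0933 FPKM in Col-0 DPI, an estimated 25 reads in bzr1-1D DPI and 4 in Col-0 DPI, and its ratio was 6.50-fold (2.23 to 25.6). Its difference between the log2 ratios, -4.08 ± 1.65, again contains the single read of Col-0 mock. GA2OX8 had 0.553 FPKM in bzr1-1D DPI and 0.34 FPKM in Col-0 DPI, and the interval of its 1.63-fold ratio, 0.753 to 3.48, includes 1. Both of these low genes thus kept a mean above Col-0, GA2OX8 only within its counting error.

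GA20OX3 was the gene past the threshold in opposite directions in the 2 conditions. It had 0.947 FPKM in bzr1-1D DPI and 0.2 FPKM in Col-0 DPI, a 4.73-fold ratio (2.38 to 11.5) from an estimated 43 reads in bzr1-1D DPI and 9 in Col-0 DPI, whereas in mock its mean was lower in bzr1-1D. The difference between the log2 ratios was 4.05 ± 0.73. With 1 FPKM added to the means, it was 1.35. GA20OX2 had 2.85 FPKM in bzr1-1D DPI and 2.17 FPKM in Col-0 DPI (1.31-fold, 0.999 to 1.74). As deposited it stayed inside the threshold in both conditions, while relative to the median gene it was past the threshold in mock. The difference between its log2 ratios was 0.96 ± 0.30. The median gene, at 0.09, differed little between the conditions by this measure.

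**Figure D3:**
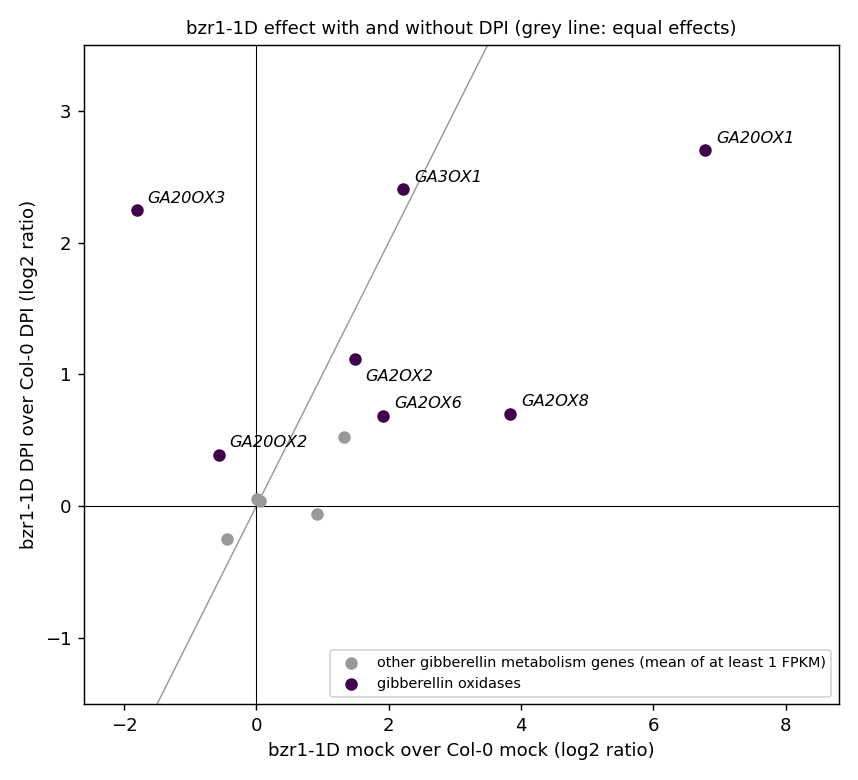
Log2 ratio of bzr1-1D DPI over Col-0 DPI (y axis) against that of bzr1-1D mock over Col-0 mock (x axis) for 7 gibberellin oxidases (dark) and for other gibberellin metabolism genes averaging 1 FPKM or more (grey). Points on the grey line have equal ratios in both conditions; GA3OX1 lies near it, GA2OX6, GA2OX8 and GA20OX1 lie below it, and GA20OX2 and GA20OX3 lie above it, GA20OX3 at 2.24 under DPI and -1.81 in mock.

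Within bzr1-1D, DPI went with lower means of GA20OX1, GA2OX6 and GA2OX8 and with a higher mean of GA20OX3. In bzr1-1D DPI against bzr1-1D mock, 1 of the 7 genes listed was higher and 3 were lower, against 18.6% and 32.3% of all 23589 genes. The median log2 ratio was -0.46 for the 7 genes and -0.25 for all genes. Relative to the median gene with at least 1 FPKM, at -0.24, 2 of the 7 were higher and 3 lower, GA20OX2 being the gene added. So centred, 5876 of all 23589 genes were higher and 5412 lower. Among all genes past the threshold, 36.5% were higher as deposited and 52.1% after this centring.

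GA20OX1 had the widest difference, with 0.607 FPKM in bzr1-1D DPI and 3.31 FPKM in bzr1-1D mock, a ratio of 0.184 (counting interval 0.114 to 0.288). GA2OX6 had 6.15 FPKM in bzr1-1D DPI and 14.1 FPKM in bzr1-1D mock, or 0.436 (0.371 to 0.512), and GA2OX8 had 0.553 FPKM in bzr1-1D DPI and 1.15 FPKM in bzr1-1D mock, or 0.483 (0.262 to 0.892). All 3 intervals lay below 1. GA20OX3 went the other way, with 0.947 FPKM in bzr1-1D DPI and 0.295 FPKM in bzr1-1D mock (3.21-fold, 1.51 to 6.79). GA3OX1, at 21.4 FPKM in bzr1-1D DPI and 29.5 FPKM in bzr1-1D mock, and GA2OX2, at 6.66 FPKM in bzr1-1D DPI and 5.37 FPKM in bzr1-1D mock, stayed inside the threshold, at ratios of 0.727 and 1.24.

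In Col-0 the same inhibitor gave another set of differences. In Col-0 DPI against Col-0 mock, 3 of the 8 genes were higher and 3 lower by 1.5-fold or more, against 8.41% and 30.1% of all 23523 genes. Of these 6 calls, those of GA20OX1 and GA2OX1 rest on at most 4 reads in either group. The median log2 ratio of the 8 genes was -0.22, against -0.30 for all genes. Relative to the median gene with at least 1 FPKM, at -0.28, 3 were higher and 2 lower, since GA3OX1 then lay inside the threshold. So centred, 3252 of all 23523 genes were higher and 4034 lower. Among all genes past the threshold, the share of higher genes was 21.9% as deposited and 44.6% after centring.

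GA20OX3 had 0.2 FPKM in Col-0 DPI and 1.03 FPKM in Col-0 mock, a ratio of 0.194 (counting interval 0.079 to 0.378), and was thus lower with DPI in Col-0 and higher with DPI in bzr1-1D. GA3OX1 had 4.04 FPKM in Col-0 DPI and 6.32 FPKM in Col-0 mock, or 0.639 (0.526 to 0.770). GA2OX2 was higher, with 3.07 FPKM in Col-0 DPI and 1.91 FPKM in Col-0 mock (1.61-fold, 1.24 to 2.06). Among inactivating enzyme genes outside the set, GA2OX9 (0.565, 0.466 to 0.682) and ELA1 (0.471, 0.357 to 0.619) were lower with DPI in Col-0. The inactivating genes thus did not share a direction in DPI-treated wild type. GA2OX6, at 3.82 FPKM in Col-0 DPI and 3.74 FPKM in Col-0 mock, had a ratio of 1.02 (0.814 to 1.28), in contrast to its ratio of 0.436 in bzr1-1D. GA2OX8 had 0.34 FPKM in Col-0 DPI and 0.08 FPKM in Col-0 mock, an estimated 13 reads in Col-0 DPI and 3 in Col-0 mock (4.25-fold, 1.22 to 24.2).

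Adding H2O2 to DPI-treated bzr1-1D asks which of these differences H2O2 takes back. In bzr1-1D DPI plus H2O2 against bzr1-1D DPI, 3 of the 7 genes listed were higher and 0 lower, against 30.4% and 8.47% of all 23468 genes. The 3 were GA20OX1, GA2OX6 and GA2OX8, the genes that were lower in bzr1-1D DPI than in bzr1-1D mock. Both comparisons share the bzr1-1D DPI libraries, so that an error in that group would move both. The median log2 ratio was 0.26 for the 7 genes and 0.30 for all genes. Relative to the median gene with at least 1 FPKM, at 0.29, 2 of the 7 were higher and 0 lower, as GA2OX6 then lay just inside the threshold at 0.56. So centred, 3841 of all 23468 genes were higher and 3729 lower. Centring also set the share of higher genes among all genes past the threshold at 50.7%, against 78.2% as deposited.

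GA20OX1 had 1.99 FPKM in bzr1-1D DPI plus H2O2 and 0.607 FPKM in bzr1-1D DPI, a 3.27-fold ratio (counting interval 2.00 to 5.45). GA2OX6 had 11.1 FPKM in bzr1-1D DPI plus H2O2 and 6.15 FPKM in bzr1-1D DPI (1.80-fold, 1.52 to 2.14), and GA2OX8 had 1.16 FPKM in bzr1-1D DPI plus H2O2 and 0.553 FPKM in bzr1-1D DPI (2.09-fold, 1.11 to 3.81). For the other 4 genes the counting interval of the ratio included 1. GA20OX3 stayed at 0.915 FPKM in bzr1-1D DPI plus H2O2 beside 0.947 FPKM in bzr1-1D DPI, a ratio of 0.967 (0.590 to 1.61), and GA3OX1 at 22.8 FPKM in bzr1-1D DPI plus H2O2 beside 21.4 FPKM in bzr1-1D DPI (1.06-fold, 0.960 to 1.17).

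As a percentage of bzr1-1D mock, GA20OX1 stood at 60.1% with DPI plus H2O2 and 18.4% with DPI alone, GA2OX6 at 78.7% with DPI plus H2O2 and 43.6% with DPI, and GA2OX8 at 100.9% with DPI plus H2O2 and 48.3% with DPI. The median of 18394 genes that averaged 1 FPKM or more over the bzr1-1D groups was 103.5% with DPI plus H2O2 and 85.0% with DPI. In bzr1-1D DPI plus H2O2 against bzr1-1D mock, 2 of the 7 genes were higher and 1 lower, against 20.5% and 15.7% of all 23503 genes. The lower gene was GA20OX1 (0.601, 0.423 to 0.843) and the higher ones were GA20OX2 (1.67-fold, 1.20 to 2.34) and GA20OX3 (3.10-fold, 1.41 to 6.86). The 3 calls were all 20-oxidases, at shares not far from those of all genes. With 1 FPKM added to the means, 0 of the 7 genes were past the threshold, against 18.3% of all genes. GA3OX1, GA2OX2, GA2OX6 and GA2OX8 were within 1.5-fold of mock.

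**Figure D4:**
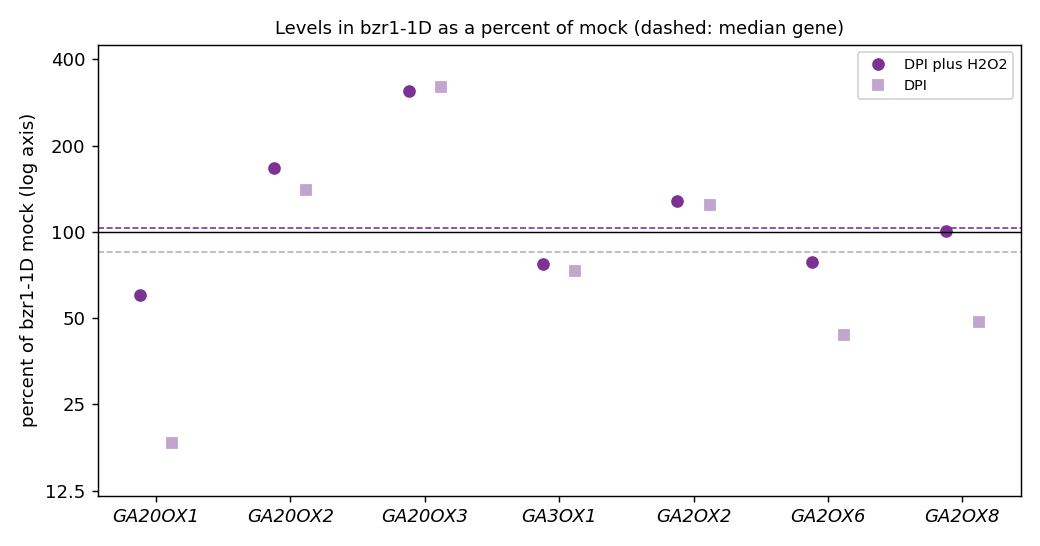
Authors' mean of 7 gibberellin oxidases (x axis) in bzr1-1D DPI plus H2O2 (circles) and bzr1-1D DPI (squares), as a percentage of bzr1-1D mock (y axis, log scale). The solid line is 100% and dashed lines are the median gene, at 103.5% with DPI plus H2O2 and 85.0% with DPI; GA20OX1, GA2OX6 and GA2OX8 lie higher with H2O2 than without it, while for GA20OX3, GA3OX1 and GA2OX2 the 2 points lie close together.

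FPKM is a level per transcript length, so the means of a class can be added. The summed 20-oxidase level was 6.31 FPKM in bzr1-1D DPI plus H2O2, 4.41 FPKM in bzr1-1D DPI, 5.64 FPKM in bzr1-1D mock, 2.47 FPKM in Col-0 DPI and 4.09 FPKM in Col-0 mock. The sum differed less between bzr1-1D mock and Col-0 mock than its makeup did. GA20OX1 made up 58.6% of the sum in bzr1-1D mock and 0.73% in Col-0 mock, while GA20OX2 made up 36.2% in bzr1-1D mock and 74.0% in Col-0 mock. In bzr1-1D the share of GA20OX1 was 31.5% with DPI plus H2O2 and 13.8% with DPI, and in Col-0 DPI it was 3.78%.

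The summed level of the 4 GA 2-oxidases was 19.1 FPKM in bzr1-1D DPI plus H2O2, 13.4 FPKM in bzr1-1D DPI, 20.6 FPKM in bzr1-1D mock, 7.22 FPKM in Col-0 DPI and 5.78 FPKM in Col-0 mock. GA2OX6 was the most abundant of them in 4 of the 5 groups, with 68.4% of the sum in bzr1-1D mock and 64.6% in Col-0 mock. In bzr1-1D DPI, GA2OX2 (49.8%) and GA2OX6 (46.0%) were level within counting error. The counting intervals of GA2OX6 (52.8%) and GA2OX2 (42.5%) also overlapped in Col-0 DPI. Divided by the 20-oxidase sum, the 2-oxidase sum was 3.03 in bzr1-1D DPI plus H2O2, 3.03 in bzr1-1D DPI, 3.65 in bzr1-1D mock, 2.93 in Col-0 DPI and 1.42 in Col-0 mock. GA2OX9, a GA 2-oxidase outside this sum, had 4.62 FPKM in bzr1-1D DPI plus H2O2 and 3.78 FPKM in bzr1-1D DPI. It had 13.2 FPKM in bzr1-1D mock, 3.92 FPKM in Col-0 DPI and 6.94 FPKM in Col-0 mock. For the 4 genes summed, Col-0 mock had the lowest quotient. GA2OX9 by itself had a higher mean in Col-0 mock than in Col-0 DPI, and a quotient that includes it was not computed. The same quotient for GA3OX1 was 3.61 in bzr1-1D DPI plus H2O2, 4.86 in bzr1-1D DPI, 5.22 in bzr1-1D mock, 1.64 in Col-0 DPI and 1.55 in Col-0 mock, so that all 3 bzr1-1D groups lay above both Col-0 groups.

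**Figure D5:**
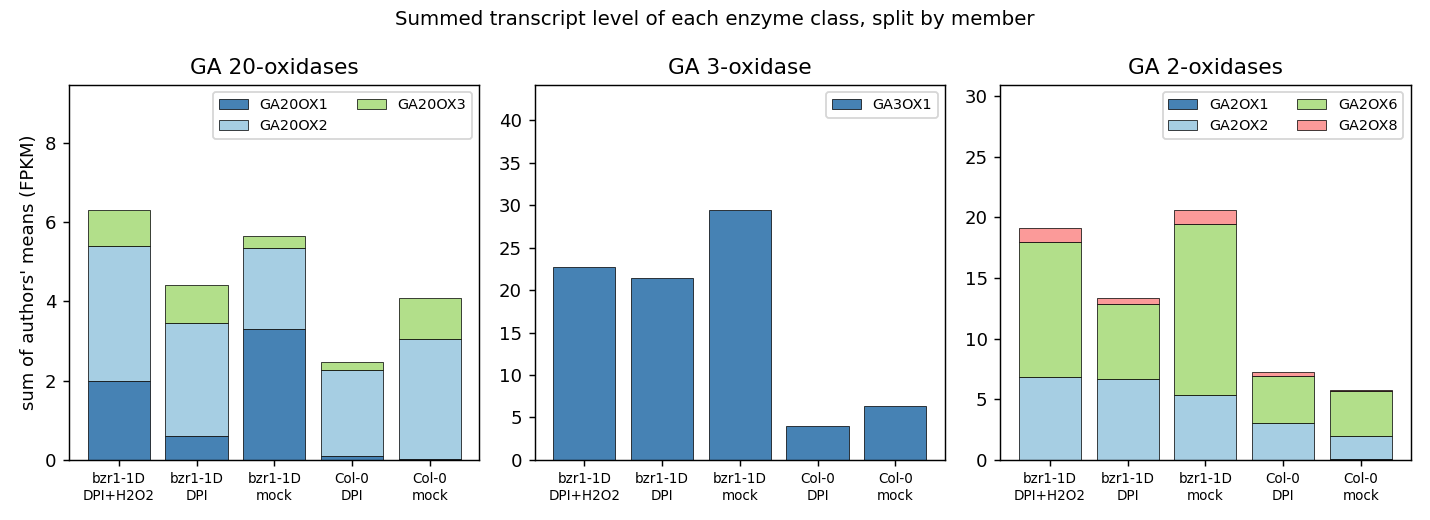
Sum of the authors' means (FPKM, y axis from 0) of the GA 20-oxidases, the GA 3-oxidase and the GA 2-oxidases in the 5 groups, with each bar split by gene. GA20OX1 fills 58.6% of the 20-oxidase bar in bzr1-1D mock and 0.73% in Col-0 mock, and the 2-oxidase bar is 20.6 FPKM in bzr1-1D mock, beside 5.78 FPKM in Col-0 mock.

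The rest of gibberellin metabolism was taken as a list of 18 genes, from the early enzymes CPS, KS, KO, KAO1 and KAO2 to further oxidases and other inactivating enzymes. In bzr1-1D mock against Col-0 mock, 7 of them averaged 1 FPKM or more, of which 3 were higher and 0 lower, with a median log2 ratio of 0.12 against 0.14 for all such genes and a background of 26% higher and 15.4% lower. At any level, 16 of the 18 were listed, of which 8 were higher and 3 lower, with a median log2 ratio of 0.44 against 0.16 for all genes and a background of 29.2% higher and 19.3% lower. The 3 higher genes that averaged 1 FPKM or more belong to families of gibberellin-inactivating enzymes. ELA1, a cytochrome P450 that inactivates gibberellin, had 7.57 FPKM in bzr1-1D mock, beside 3.01 FPKM in Col-0 mock (2.51-fold, 2.07 to 3.06), GA2OX9 had 13.2 FPKM in bzr1-1D mock against 6.94 FPKM in Col-0 mock (1.90-fold, 1.63 to 2.20), and GA2OX4 had 1.41 FPKM in bzr1-1D mock against 0.833 FPKM in Col-0 mock (1.69-fold, 1.01 to 2.83). Under DPI, 0 of 5 such genes were past the threshold between the genotypes (background 26.1% higher and 8.95% lower), where the median log2 ratio was 0.04 and that of all such genes 0.20.

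With DPI in bzr1-1D, 0 of 6 such genes were higher and 3 lower than in bzr1-1D mock, namely GA2OX9 (3.78 FPKM in bzr1-1D DPI, 13.2 FPKM in bzr1-1D mock), ELA1 (2.05 FPKM in bzr1-1D DPI, 7.57 FPKM in bzr1-1D mock) and KS (0.893 FPKM in bzr1-1D DPI, 1.40 FPKM in bzr1-1D mock). The median log2 ratio of the 6 was -0.60, against -0.24 for all such genes, and the background was 15% of genes with at least 1 FPKM higher and 29.7% lower. At any level, 0 of 14 listed genes were higher and 10 lower, with a median of -1.57 against -0.25 for all genes, of which 18.6% were higher and 32.3% lower. GA2OX4, whose means average under 1 FPKM in this comparison, was among the 10, at 0.50 FPKM in bzr1-1D DPI against 1.41 FPKM in bzr1-1D mock (0.356-fold, 0.194 to 0.660), and it had 0.995 FPKM in bzr1-1D DPI plus H2O2 (1.99-fold of bzr1-1D DPI, 1.01 to 3.79). In Col-0, 0 of 6 were higher and 4 lower with DPI, namely the same 3 and KAO2 (11.2 FPKM in Col-0 DPI, 16.9 FPKM in Col-0 mock), against 4.01% and 25.2% of such genes, and the median log2 ratio was -0.69 against -0.28. ELA1 and GA2OX9 thus had lower means with DPI in both genotypes, whereas GA2OX6 did so in bzr1-1D only, which was not tested over replicates. With H2O2 added, ELA1 (5.08 FPKM in bzr1-1D DPI plus H2O2, 2.05 FPKM in bzr1-1D DPI) and KS (1.75 FPKM in bzr1-1D DPI plus H2O2, 0.893 FPKM in bzr1-1D DPI) were higher, 2 of 6 such genes, with 0 lower, against a background of 27.2% higher and 4.18% lower. GA2OX9 was not past the threshold there, at 4.62 FPKM in bzr1-1D DPI plus H2O2 and 3.78 FPKM in bzr1-1D DPI, and with a ratio of 0.351 to bzr1-1D mock it was the single gene of 7 in the list past the threshold in that comparison (0 higher, 1 lower, against 16.5% and 10.5% of such genes). The remaining oxidases of the list, GA20OX4, GA20OX5, GA3OX2, GA3OX4, GA2OX3 and GA2OX7, had no mean above 0.23 FPKM, and GA3OX3 was not listed in any table.

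Of the 9 genes of gibberellin perception and DELLA action, 1 was higher and 1 lower in bzr1-1D mock than in Col-0 mock, namely the DELLA gene RGL1 (23.0 FPKM in bzr1-1D mock, 10.1 FPKM in Col-0 mock) and the receptor gene GID1A (22.0 FPKM in bzr1-1D mock, 35.1 FPKM in Col-0 mock), and the background was 26% of genes higher and 15.4% lower. Under DPI, RGL1 (18.1 FPKM in bzr1-1D DPI, 10.4 FPKM in Col-0 DPI) and GID1B (26.0 FPKM in bzr1-1D DPI, 15.3 FPKM in Col-0 DPI) were higher and 0 were lower, against a background of 26.1% higher and 8.95% lower.

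For the gene of each class with the highest mean over the 5 groups, the genes with the most similar pattern were sought among 16302 genes with at least 1 FPKM in every group, by the root mean square difference of log2 group means after centring each gene on its own mean over the 5 groups. GA2OX6 was matched most closely by KUP9 (AT4G19960, a potassium uptake permease gene) at 0.030, then by AT5G42860 at 0.088 and the remorin family gene AT1G13920 at 0.101. KUP9 had 4.38 FPKM in bzr1-1D DPI plus H2O2, 2.44 FPKM in bzr1-1D DPI, 5.71 FPKM in bzr1-1D mock, 1.60 FPKM in Col-0 DPI and 1.50 FPKM in Col-0 mock. GA3OX1 was nearest to COR413IM1 (AT1G29395) at 0.091, AT4G06534 at 0.181 and the histone superfamily gene AT2G28720 at 0.199, and GA20OX2 to AT5G14050 at 0.045, CLPB3 (AT5G15450) at 0.051 and AT5G09300 at 0.052. Within a distance of 0.1 lay 1 gene for GA3OX1, 2 for GA2OX6 and 40 for GA20OX2, whose own levels varied least. With 5 group means per gene, such likeness is a description of these libraries. The genes chosen were not highest in every group, since GA20OX1 had a higher mean than GA20OX2 in bzr1-1D mock, as had GA2OX2 than GA2OX6 in bzr1-1D DPI, where their counting intervals overlap.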

How the data were processed

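RNA was sequenced on the BGISEQ-500 platform, and the authors mapped reads with HISAT and Bowtie2 (versions not given in the sources used here) to TAIR10, per the processing notes. The deposited tables hold the authors' mean per group, taken as FPKM from their size and scaling by gene length, with zeros set to 0.01 before averaging. Values per sample were not analysed here. The authors' own log2 ratios, directions and NOISeq probabilities stand in the same tables and were not used. Columns of bzr1-1D are headed by another abbreviation and were identified from the table names. For bzr1-1D mock the labels have 3 samples but the means average 2 libraries, and the omitted one is unknown. Of the deposited tables, 6 were used. Tables of filtered genes and a table that ends within a row were not used.

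From the deposited FPKM means, log2 ratios were computed with no pseudocount or filter, and genes past 1.5-fold were counted. Since no spread between samples was at hand, no test was made and the tests planned for values per sample were not run. The reads behind a mean were estimated from the steps between low FPKM values, of which 85.6% to 92.0% per group lay within 0.2 of a whole number of reads, with a gene's median length over the tables. For GA2OX8 this median was 1255 bases and the shortest length given was 742.25, so its read estimates and intervals depend on that choice. Exact Poisson and conditional binomial intervals (95%, scipy 1.17.1) cover counting error only. The scripts were tested on simulated data. Alternatives were pseudocounts of 0.1 and 1 FPKM, centring on the median gene, rescaling without the 10 most abundant genes, a 2-fold threshold and a minimum mean of 1 FPKM. The members, gene lists and comparisons were chosen with earlier results of these data known. Genes of other gibberellin metabolism were given values where past 1.5-fold at an average of 1 FPKM or more. Values of GA2OX4 and GA2OX9 were also given in comparisons outside this rule. The 7 oxidases named at low level or as not listed have no fold given. The root endodermis list is given without a gene that is not reported here.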

Additional observations from a re-analysis of the deposited data

How the results depend on the processing

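No paired analysis was possible because the tables hold 1 mean per group, and for the same reason leaving out each replicate in turn was not run. No member past 1.5-fold changed sign under the alternatives tried. With only genes of at least 1 FPKM over both groups, the number of members past 1.5-fold was 4 in place of 7 between the genotypes in mock, 3 in place of 6 for bzr1-1D DPI against Col-0 DPI, 2 in place of 4 for bzr1-1D DPI against bzr1-1D mock and 2 in place of 6 for Col-0 DPI against Col-0 mock, since fewer members enter. With 1 FPKM added, 3 of 7 were past 1.5-fold for bzr1-1D DPI against Col-0 DPI, against 22.9% of all genes. For Col-0 DPI against Col-0 mock it was 1 of 8, against 16.3%. For bzr1-1D DPI plus H2O2 against bzr1-1D mock it was 0 of 7 in place of 3, against 18.3%, and a 2-fold threshold without the addition left 1, against 20.4%. Adding 1 FPKM set the difference of log2 ratios between the DPI and the mock condition at 1.35 for GA20OX3 (4.05 as deposited) and -0.78 for GA2OX8 (-3.14 as deposited), as a constant added to low values shrinks ratios. The other 54 values of counts and differences lay within 1.5 times the count or within counting error. Depth limits GA20OX1, GA2OX1 and GA2OX8 in Col-0 mock, at 1, 2 and 3 estimated reads.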
